A study of Mus musculus with 10 samples.

Results

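The choroid plexus epithelium genes are a list of 40 genes that mark the secretory epithelium of the choroid plexus, taken by symbol and ordered here by what their products do. They were read in the hippocampus of mice with a segmental duplication of chromosome 16 and of control littermates. A gene was measured by its probe sets that carry exactly 1 gene symbol, and where there were several by the brightest over all arrays, which gave values for 36 of the 40 genes among 19938 genes in all. Enpp2, Prlr, Lmx1a and Mfrp had no such probe set and were not analysed here.

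RNA from the hippocampus of 5 Dp1Rhr and 5 control mice was measured on Affymetrix Mouse Gene 1.0 ST arrays, with a separate array for each mouse. Dp1Rhr mice carry 1 chromosome 16 with a tandem duplication from Cbr1 to Fam3b, a part of the region homologous to human chromosome 21, so that genes within it are present in 3 copies. The control mice were wild-type littermates from the cross of Dp1Rhr with Dp5Yah, another segmental duplication line, and carried neither duplication. All mice were males of 16 weeks on a C57BL/6N background per the labels, and both hippocampi of a mouse were taken whole. The study's methods instead describe backcrossing of the duplication lines to C57BL/6J. The duplication is present in every cell of the mouse. Values are log2 intensities, on which a difference of 1 is a 2-fold difference. A level is compared only with the same gene's level on other arrays.

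The choroid plexus is a folded sheet of epithelium over a vascular core that hangs in the brain ventricles and secretes cerebrospinal fluid. Its cells move sodium, chloride, bicarbonate and water from blood to ventricle, carry folate and other solutes, are sealed by tight junctions, and release carrier and growth factor proteins, above all transthyretin. The plexus of the lateral ventricle attaches along the fimbria of the hippocampus.

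On these arrays 2 control hippocampi stood apart from all others. In control replicates 2 and 3 nearly all choroid plexus genes had their lowest values of the series, and the comparison of the groups is therefore given with and without them. Those 2 arrays were the lowest of the 10 in 33 of the 36 choroid plexus genes, against 3.43% of all 19938 genes. They were singled out because earlier results of these data showed them apart in Ttr, itself a gene of the list. This share and those that follow therefore describe the pattern and do not test it. The step from those 2 arrays to the next is called the gap here, the lowest value of the other 8 arrays minus the higher of the 2. It was over 0.5 for 13 choroid plexus genes (0.1% of all genes) and over 1 for 6 of them (0.0301% of all genes). The 8 genes with the widest gaps of all 19938 genes were all choroid plexus genes. In whole tissue, fewer cells of a type and less RNA per cell cannot be told apart. Array medians were 6.77 to 6.83 and correlations between arrays 0.996 to 0.998. The normalization brings medians together, and neither measure could show a difference in a small set of genes. In some genes with wide gaps, such as Kcnj13, Clic6, F5 and Tmem72, both low arrays lay under those medians. How far low signal limits those gaps was not tested.

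**Figure D1:**
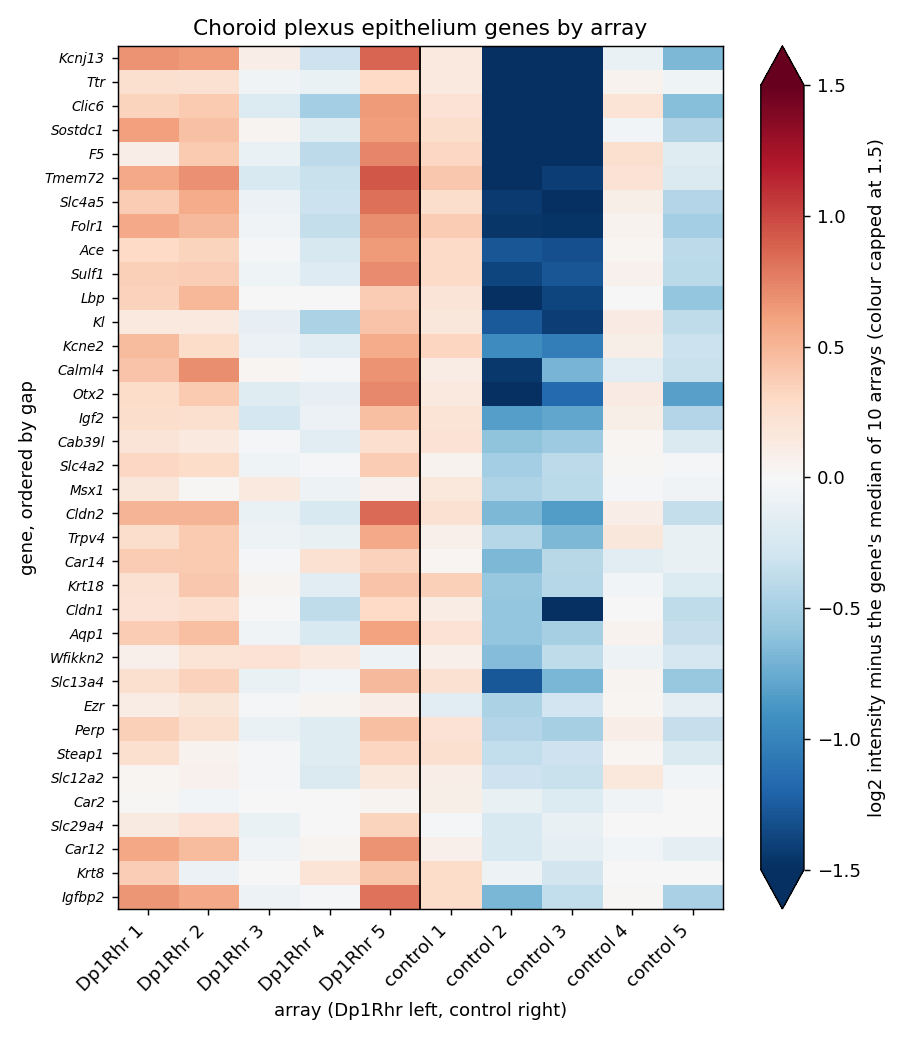
Heatmap of the 36 measured choroid plexus epithelium genes (rows, ordered by gap) on the 10 arrays (columns, Dp1Rhr left and control right). Colour is the log2 intensity minus the gene's median over the 10 arrays, capped at 1.5 in both directions. Control 2 and 3 form the dark blue columns, and Dp1Rhr 5 is the highest array for 29 of the 36 genes.

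The remaining 8 arrays differed among themselves as well, in an order that most of the genes shared. Dp1Rhr replicate 5 was the highest of all 10 arrays in 29 of the 36 genes (5.69% of all genes). Of the 8 arrays other than control 2 and 3, the 3 lowest were Dp1Rhr replicates 3 and 4 and control replicate 5 in 22 of the 36 genes (1.74% of all genes). The mean over the 36 genes was 9.00, 9.01, 8.63, 8.53 and 9.17 in Dp1Rhr, against 8.86, 7.54, 7.65, 8.72 and 8.38 in control. The Dp1Rhr arrays thus spanned 0.64 on the log2 scale within their group, and the 3 control arrays other than replicates 2 and 3 lay within or just below that span. Over single genes, the median range of those 8 arrays was 0.89 for choroid plexus genes and 0.20 for all genes.

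Promoter sequence is printed for genes with wide gaps, since these genes moved together over the arrays. Windows of 250 bases upstream of a RefSeq start (GRCm38.p6) were at hand for 27 of the 36 genes, 38 windows in all. Each is written from 5′ to 3′ on the gene's own strand. The first pair are the genes with the widest gaps among those whose window could be shown, and the window of Ace was chosen after a motif search. They belong to Kcnj13 at chr1:87394730-87394979 on the minus strand, to F5 at chr1:164151585-164151834 on the plus strand and to Ace at chr11:105967698-105967947 on the plus strand. Capitals mark TAATCC, the core motif bound by OTX homeodomain proteins.
Kcnj13: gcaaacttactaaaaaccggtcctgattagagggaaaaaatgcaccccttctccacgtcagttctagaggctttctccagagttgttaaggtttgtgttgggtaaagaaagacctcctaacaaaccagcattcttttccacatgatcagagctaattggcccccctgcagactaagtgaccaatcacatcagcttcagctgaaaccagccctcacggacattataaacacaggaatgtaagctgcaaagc
F5: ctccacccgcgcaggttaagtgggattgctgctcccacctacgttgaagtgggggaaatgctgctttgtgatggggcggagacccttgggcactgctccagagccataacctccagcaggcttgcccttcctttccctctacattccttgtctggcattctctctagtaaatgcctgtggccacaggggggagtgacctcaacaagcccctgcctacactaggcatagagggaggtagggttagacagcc
Ace: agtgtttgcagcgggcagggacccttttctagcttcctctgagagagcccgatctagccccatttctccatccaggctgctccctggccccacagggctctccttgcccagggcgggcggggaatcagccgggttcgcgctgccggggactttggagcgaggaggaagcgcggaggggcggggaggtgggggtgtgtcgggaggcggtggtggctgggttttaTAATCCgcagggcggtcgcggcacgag
The motif was searched as TAATCC and GGATTA. It was found in 3 of the 38 windows, of Ace, Car14 and Otx2, and in 6.25% of all 32851 windows of that length. In the window of Ace shown, its first base lay at -27 from the start, and the other window of Ace held no match. TAATTA, a core of homeodomain proteins such as MSX1 that reads the same on both strands, was found in 3 of the 38 windows, of Cldn1 and Otx2 (4.84% of all windows). GTAAACA, the forkhead core, searched also as TGTTTAC, was found in 0 of the 38 windows (3.17% of all windows). A match to these letters describes the sequence and is not a measured binding site.

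Among the secreted proteins, Ttr showed the pattern most plainly. Ttr encodes transthyretin, which carries thyroid hormone and the retinol-binding protein in cerebrospinal fluid. Its level was 13.56, 13.54, 13.25, 13.21 and 13.61 in Dp1Rhr hippocampi, against 13.45, 9.53, 9.83, 13.37 and 13.24 in control hippocampi. Control replicates 2 and 3 lay 3.39 or more below every other array, a gap of 10.5-fold, while the other 8 arrays stayed within 0.40 of each other. Those 8 values lay close to the highest value of any probe set, which was 14.0 to 14.1 on every array. Group means were 13.44 ± 0.19 in Dp1Rhr and 11.88 ± 2.02 in control (SD, n = 5 each), so that the control SD was 10.8 times the Dp1Rhr SD.

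Sostdc1, a secreted antagonist of BMP and Wnt signals, was at 10.39, 10.21, 9.82, 9.60 and 10.41 in Dp1Rhr, against 10.04, 7.87, 7.86, 9.74 and 9.33 in control. F5, coagulation factor V, was at 8.15, 8.44, 7.94, 7.66 and 8.78 in Dp1Rhr, against 8.35, 6.25, 6.17, 8.28 and 7.87 in control. In both genes control 2 and 3 were almost equal and lay below the other arrays by gaps of 1.46 and 1.41. Sulf1, an extracellular enzyme that trims sulfate groups from heparan sulfate, was at 8.78, 8.79, 8.36, 8.23 and 9.14 in Dp1Rhr, against 8.72, 7.05, 7.14, 8.49 and 8.02 in control. Lbp, the lipopolysaccharide-binding protein, was at 9.36, 9.52, 9.01, 9.02 and 9.40 in Dp1Rhr, against 9.21, 6.83, 7.64, 9.01 and 8.43 in control. The 2 low arrays were together in Sulf1 and stood apart from each other in Lbp, with replicate 2 the lower.

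The secreted growth factor and its binding protein behaved less sharply. Igf2, insulin-like growth factor 2, ranged over 10.09 to 10.81 in Dp1Rhr and over 9.53 to 10.57 in control, with a gap of 0.34. Igfbp2, which binds it, was at 9.50, 9.42, 8.76, 8.82 and 9.66 in Dp1Rhr, against 9.12, 8.16, 8.48, 8.86 and 8.36 in control. Control 5 lay below control 3 in Igfbp2, so it was an exception to the pattern. Wfikkn2, a secreted inhibitor of myostatin, was at 6.89, 7.03, 7.03, 6.96 and 6.74 in Dp1Rhr, against 6.90, 6.16, 6.44, 6.74 and 6.56 in control. Its values differed little among the Dp1Rhr arrays, and Dp1Rhr 5 was the lowest of them. Of the 8 measured secreted protein genes, control 2 and 3 were the 2 lowest arrays in 7, and the median gap was 0.84.

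**Figure D2:**
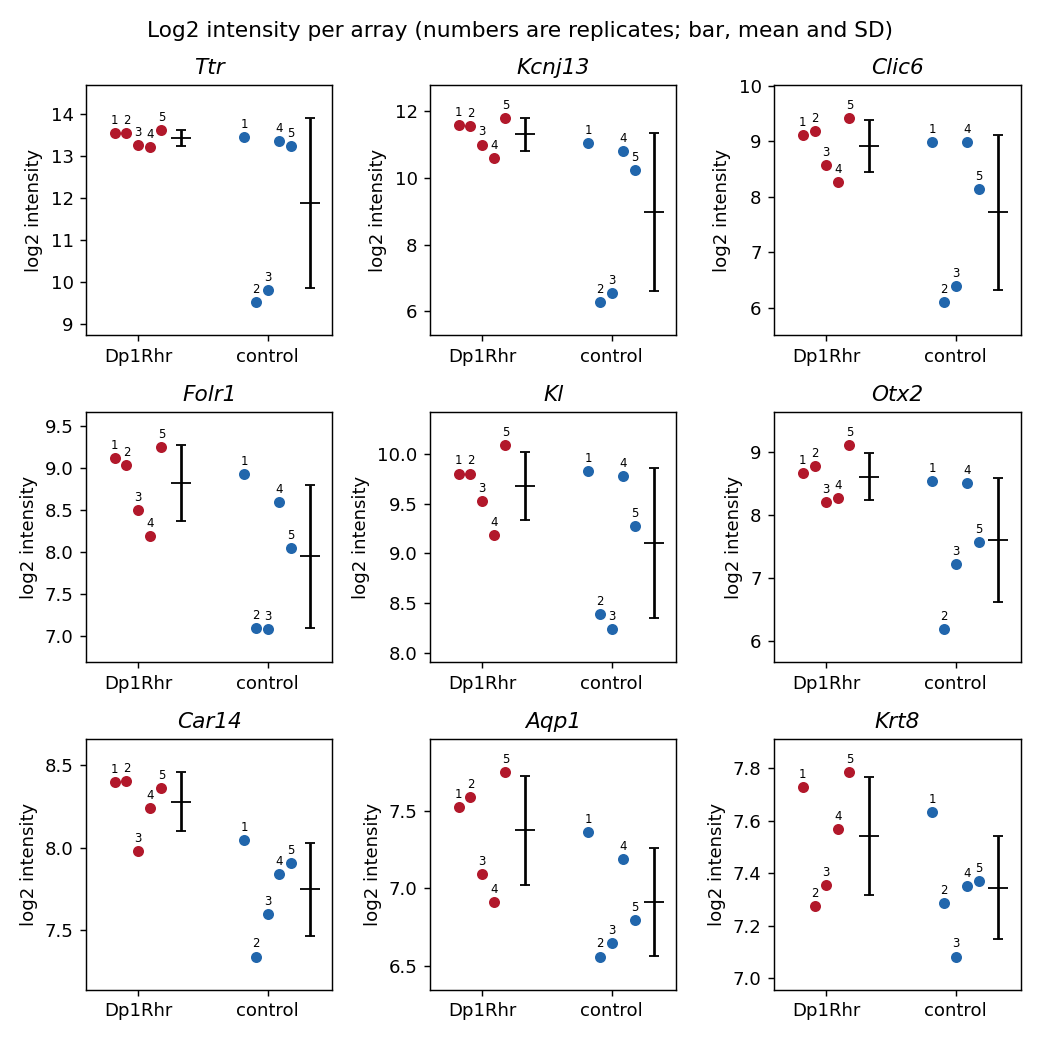
Log2 intensity of 9 choroid plexus epithelium genes on each array (points, numbered by replicate), with Dp1Rhr left and control right in each panel. The bar beside each group gives its mean and SD (n = 5). Control 2 and 3 lie far below the other arrays in Ttr and Kcnj13, closer to them in Aqp1 and Car14, and in Krt8 control 3 is the lowest array while control 2 lies among the others.

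Among the genes for ion, water and pH transport, the widest gap of any gene on the arrays was that of Kcnj13. It encodes Kir7.1, an inward rectifier potassium channel of the epithelium's ventricular face, and its promoter is printed above. Its level was 11.59, 11.55, 11.01, 10.60 and 11.79 in Dp1Rhr hippocampi, against 11.05, 6.28, 6.54, 10.82 and 10.24 in control hippocampi. Control 2 and 3 lay 12.9-fold or more below every other array, and the other 8 arrays spanned 1.55, with Dp1Rhr 5 the highest and control 5 the lowest.

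Clic6, a member of the chloride intracellular channel family, was at 9.12, 9.18, 8.58, 8.27 and 9.42 in Dp1Rhr, against 8.99, 6.10, 6.39, 8.98 and 8.15 in control. Slc4a5, an electrogenic sodium bicarbonate cotransporter, was at 8.50, 8.68, 8.03, 7.80 and 8.94 in Dp1Rhr, against 8.39, 6.68, 6.44, 8.21 and 7.68 in control. Both ordered the arrays as Kcnj13 did at their ends, with Dp1Rhr 5 highest and control 5 lowest of the 8. Kcne2, a subunit of potassium channels, had a gap of 0.62 and ranged over 7.27 to 7.99 in Dp1Rhr and 6.40 to 7.75 in control. Clic6, Kcne2 and the claudin gene Cldn1 are the 3 measured choroid plexus genes on chromosome 16, and none lies in the duplicated interval (chr16:93607837-97504936, GRCm38.p6).

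Aqp1, the water channel of the epithelium, was at 7.53, 7.59, 7.10, 6.91 and 7.75 in Dp1Rhr, against 7.36, 6.56, 6.65, 7.19 and 6.80 in control. Control 2 and 3 were its 2 lowest arrays, but control 5 lay only 0.15 above them and the SD was 0.35 in both groups. The carbonic anhydrases, which supply bicarbonate and protons, split. Car14 was at 8.40, 8.41, 7.98, 8.24 and 8.36 in Dp1Rhr, against 8.05, 7.34, 7.60, 7.84 and 7.90 in control. Car12 was at 10.21, 10.10, 9.58, 9.67 and 10.30 in Dp1Rhr, against 9.71, 9.39, 9.49, 9.58 and 9.49 in control. In Car14 all Dp1Rhr arrays except replicate 3 lay above every control array, and in Car12 control 2 was lowest and control 3 and 5 were level. Car2, which oligodendrocytes also make, spanned 11.77 to 11.86 in Dp1Rhr and 11.61 to 11.91 in control, and control 1 was its highest array.

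Slc4a2, an anion exchanger that brings chloride into the epithelium, ranged over 8.46 to 8.91 in Dp1Rhr and 8.01 to 8.58 in control, with a gap of 0.33. Trpv4, a cation channel that responds to swelling, ranged over 7.38 to 8.06 in Dp1Rhr and 6.82 to 7.66 in control, with a gap of 0.31. Slc12a2, the sodium, potassium and chloride cotransporter NKCC1, which neurons and glia also make, ranged over 9.85 to 10.23 in Dp1Rhr and 9.73 to 10.23 in control and had a gap of only 0.09. Across the 11 transport genes control 2 and 3 were the 2 lowest in 10, the exception being Car12, and the median gap was 0.31.

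In the group of solute transporters, receptors and enzymes, control 2 and 3 were the 2 lowest arrays in all 9 measured genes. Folr1, the folate receptor that moves folate into cerebrospinal fluid, was at 9.12, 9.04, 8.50, 8.19 and 9.25 in Dp1Rhr, against 8.93, 7.09, 7.07, 8.60 and 8.04 in control. Kl, the anti-ageing protein klotho and coreceptor of FGF23, was at 9.80, 9.80, 9.52, 9.18 and 10.08 in Dp1Rhr, against 9.83, 8.39, 8.24, 9.78 and 9.27 in control. The other 8 arrays were clear of control 2 and 3 by 0.96 in Folr1 and 0.79 in Kl.

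Ace, the angiotensin-converting enzyme, was at 9.62, 9.66, 9.29, 9.09 and 9.96 in Dp1Rhr, against 9.61, 8.03, 8.01, 9.35 and 8.93 in control. Tmem72, a membrane protein gene, was at 8.58, 8.70, 7.78, 7.68 and 8.94 in Dp1Rhr, against 8.42, 6.23, 6.60, 8.22 and 7.79 in control. Calml4, a calmodulin-like protein gene, was at 8.16, 8.43, 7.75, 7.70 and 8.40 in Dp1Rhr, against 7.84, 6.28, 7.03, 7.56 and 7.39 in control. The low pair was level in Ace, whereas control 3 lay between control 2 and the other arrays in Calml4. The other 4 genes of the group had narrower gaps. Cab39l, a scaffold of kinases that act on cotransporters, ranged over 9.75 to 10.16 in Dp1Rhr and 9.31 to 10.13 in control (gap 0.33). Slc13a4, a sulfate transporter, ranged over 8.35 to 8.94 in Dp1Rhr and 7.18 to 8.67 in control (gap 0.12). Steap1, of a family of metalloreductases, ranged over 5.83 to 6.34 in Dp1Rhr and 5.64 to 6.25 in control (gap 0.09). Slc29a4, a monoamine transporter, ranged over 9.66 to 10.09 in Dp1Rhr and 9.53 to 9.77 in control, and its gap of 0.01 left control 2 and 3 next to the other arrays.

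Genes for junctions and cytoskeleton had the smallest gaps, with a median of 0.16 over 6 genes. Cldn2, a claudin that forms cation pores in leaky epithelia, was at 6.62, 6.63, 6.01, 5.88 and 6.96 in Dp1Rhr, against 6.34, 5.44, 5.27, 6.21 and 5.76 in control. Ezr, ezrin, which ties microvilli to actin, was at 10.03, 10.09, 9.88, 9.95 and 10.01 in Dp1Rhr, against 9.74, 9.44, 9.62, 9.95 and 9.78 in control. Krt8, a keratin of simple epithelia, was at 7.73, 7.28, 7.35, 7.57 and 7.78 in Dp1Rhr, against 7.63, 7.29, 7.08, 7.35 and 7.37 in control. The lowest pair was again control 2 and 3 in Cldn2 and Ezr, but in Krt8 Dp1Rhr 2 lay below control 2. In Cldn1, another claudin gene, control 3 was at 6.51 and control 2 at 7.54, so the low values came mainly from 1 array. Krt18, the keratin that pairs with Krt8, ranged over 7.88 to 8.46 in Dp1Rhr and 7.47 to 8.39 in control, with a gap of 0.23. Perp, a desmosome gene, ranged over 7.06 to 7.70 in Dp1Rhr and 6.75 to 7.46 in control, with a gap of 0.10.

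Both measured transcription factor genes had control 2 and 3 as their lowest arrays. Otx2, a homeodomain factor needed to form and keep the choroid plexus, was at 8.66, 8.78, 8.21, 8.27 and 9.11 in Dp1Rhr hippocampi, against 8.53, 6.19, 7.22, 8.51 and 7.57 in control hippocampi. Control 5 was the next lowest array in Otx2, 0.36 above control 3. Msx1, another homeodomain factor, was at 7.49, 7.34, 7.47, 7.25 and 7.38 in Dp1Rhr, against 7.49, 6.85, 6.92, 7.30 and 7.27 in control. The 8 other arrays lay within 0.24 of each other in Msx1, and within 1.53 in Otx2.

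Other gene lists moved less over the arrays. The mean over the 36 choroid plexus genes spanned 1.63 between the highest and the lowest array, against 0.66 for a further list of choroid plexus genes, 0.51 for ependyma and motile cilia and 0.42 for leptomeninges. Of the 34 measured genes of the further choroid plexus list, control 2 and 3 were the 2 lowest arrays in 16. The same held for 7 of 24 genes of ependyma and motile cilia, 2 of 18 of leptomeninges, 1 of 15 of endothelium, 2 of 15 of hippocampal neurons, 2 of 11 of oligodendrocytes and 0 of 12 of astrocytes, beside the 3.43% of all genes given above. Leptomeningeal genes were at a mean of 7.63, 7.64, 7.56, 7.69 and 7.61 in Dp1Rhr, against 7.68, 7.32, 7.47, 7.65 and 7.26 in control. The 3 lowest arrays of that list were control 5, 2 and 3. Ependymal genes were at a mean of 6.71, 6.88, 6.70, 6.79 and 6.68 in Dp1Rhr, against 6.59, 6.37, 6.55, 6.66 and 6.52 in control. Their part in the choroid plexus values was not tested.

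Hippocampal neuron markers served as the check of the tissue. The mean of the 15 markers ranged over 10.33 to 10.37 in Dp1Rhr and over 10.33 to 10.39 in control. That mean spanned 0.06 over the 10 arrays, where the mean of the choroid plexus genes spanned 1.63, but single markers moved more and in different directions. Wfs1, of CA1 pyramidal cells, was at 10.97, 10.88, 10.90, 11.02 and 10.75 in Dp1Rhr, against 10.73, 10.90, 10.94, 10.81 and 10.81 in control. Prox1, of dentate granule cells, was at 10.30, 10.32, 10.39, 10.33 and 10.31 in Dp1Rhr, against 10.36, 10.11, 10.13, 10.35 and 10.47 in control. Dsp, another dentate marker, was at 9.34, 9.28, 9.38, 9.15 and 9.23 in Dp1Rhr, against 9.27, 8.79, 9.08, 9.21 and 9.37 in control. In Prox1 and Dsp, as in most choroid plexus genes, control 2 and 3 were the 2 lowest arrays, and these were the only 2 of the 15 markers. C1ql2, a further dentate marker, went the other way. It was at 10.02 in control 2 and at 10.06 in control 3, its highest array. The part of the dentate markers in the choroid plexus values was not tested. The means of the 15 endothelial genes spanned 0.23, of the 11 oligodendrocyte genes 0.28 and of the 12 astrocyte genes 0.14.

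**Figure D3:**
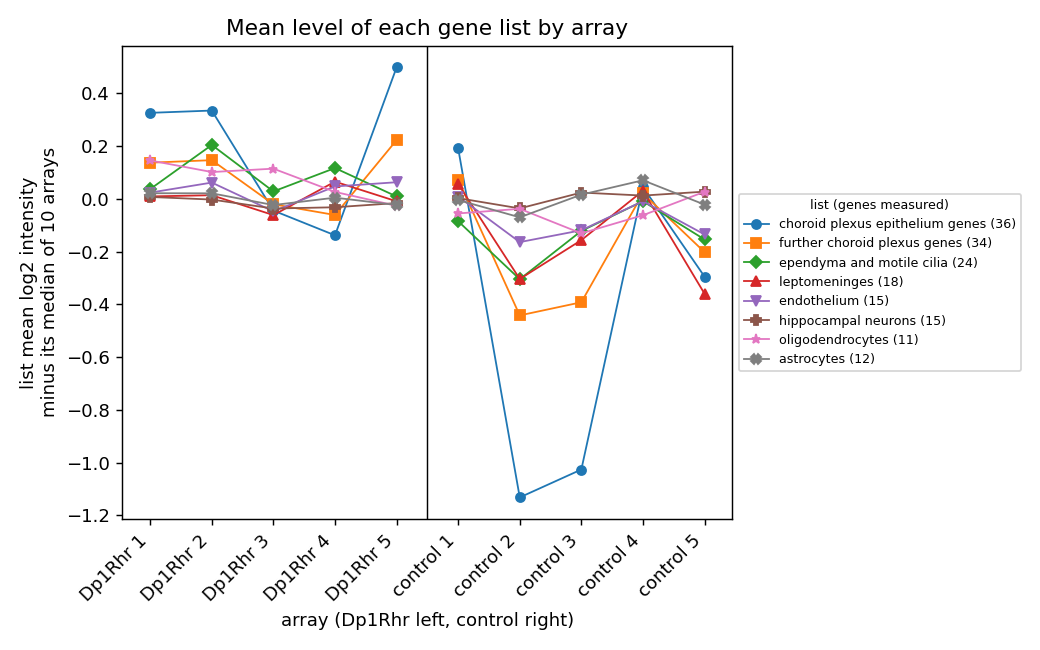
Mean log2 intensity of each gene list on each array, minus the list's median over the 10 arrays, with Dp1Rhr left and control right. The legend gives the number of genes measured. Choroid plexus epithelium genes span 1.63 over the arrays and hippocampal neuron markers 0.06.

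Outside the 40 genes, the 8 genes with the widest gaps were Ecrg4, Abca4, Slc2a12, Pla2g5, Cox8b, Drc7, Col8a1 and Prr32, with gaps of 0.94 to 0.49. Of these, 6 were on the further choroid plexus list, and Drc7, a dynein regulatory complex gene of motile cilia, and Prr32 were on none. Ecrg4, a secreted peptide hormone precursor, was at 8.81, 8.86, 8.34, 8.28 and 9.15 in Dp1Rhr, against 8.97, 7.12, 6.89, 8.56 and 8.06 in control. Abca4, a lipid transporter, was at 7.78, 7.95, 7.59, 7.22 and 8.20 in Dp1Rhr, against 7.95, 6.39, 6.46, 7.71 and 7.23 in control. Both had Dp1Rhr 5 as the highest array, like most of the choroid plexus genes. That control 2 and 3 were lowest follows from the choice of these genes by gap.

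Co-variation with Ttr was then read over the 8 arrays other than control 2 and 3, since a pooled correlation over 10 arrays would rest on those 2. All 35 other choroid plexus genes had a correlation above 0. The median Pearson's r was 0.91 for choroid plexus genes and -0.02 for other genes, and r was above 0.9 for 21 of the 35 (0.311% of all genes). Tmem72 was highest with r = 0.99, and Cldn2, Aqp1, Folr1 and Slc4a5 followed with 0.98, 0.97, 0.96 and 0.96. The genes least like Ttr were Wfikkn2 (0.08), Car2 (0.18), Msx1 (0.45) and Krt8 (0.49).

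For Tmem72 the exact two-sided permutation test over the 40320 pairings of 8 arrays gave p = 9.92e-05, and 0.340 after Benjamini-Hochberg adjustment over 19937 genes. Spearman's rho was 0.95 (exact permutation p = 0.00114, adjusted p = 0.484). At an unadjusted p of 0.05 or less, 29 of the 35 genes correlated positively with Ttr (2.48% of all genes). None of the 35 passed after adjustment, as no gene at all did (0.0% of all genes). The smallest p that 8 arrays allow is 2.48e-05, and the adjustment brings that under 0.05 only where many genes reach it.

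For most genes the relation held without the 2 arrays farthest from the median of Ttr. Without Dp1Rhr replicates 5 and 4, r over the 6 arrays left was above 0.8 for 27 of the 35 genes, and Tmem72 was still at 0.99. Slc12a2, at 0.71 over 8 arrays, was at 0.46 over 6. With each group's mean removed, so that only differences among mice of the same genotype counted, the median r was 0.92 and 29 of the 35 genes were above 0.8. Most choroid plexus genes thus differed together with Ttr among mice within groups. The lowest of these within-group correlations were those of Wfikkn2 (-0.125), Car2 (0.23), Msx1 (0.43) and Krt8 (0.45). The 35 correlations share the same arrays and the same Ttr values and are not independent of each other.

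**Figure D4:**
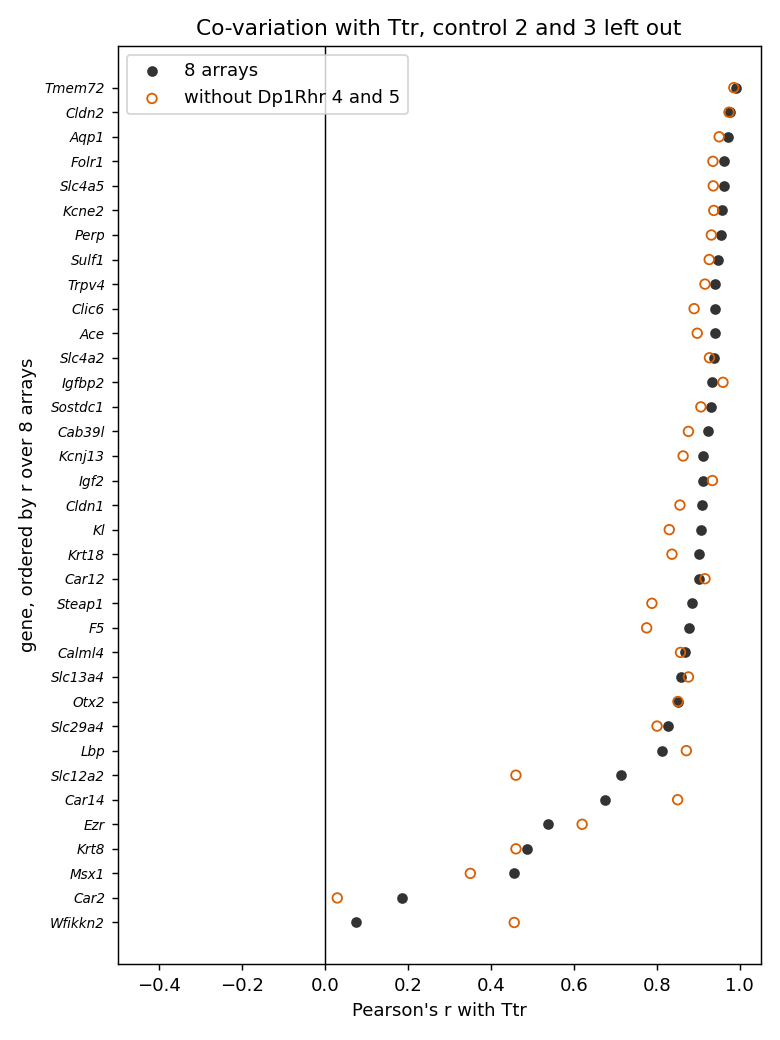
Pearson's r with Ttr for 35 choroid plexus epithelium genes over the 8 arrays other than control 2 and 3 (filled) and over the 6 arrays left without Dp1Rhr 4 and 5 (open). Of the 35 genes, 21 lie above 0.9 over 8 arrays, and Wfikkn2 and Car2 are lowest at 0.08 and 0.18.

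The comparison of Dp1Rhr with control asks whether the duplication goes with a changed level of these genes. No choroid plexus gene passed limma's test at an adjusted p of 0.05 over all 19938 genes, in either direction, against 0.627% of all genes higher and 0.176% lower. That background of 160 genes itself depended on single arrays, with 5 genes called without Dp1Rhr 1 and 284 without Dp1Rhr 5. At an unadjusted p of 0.05, 24 of the 36 were higher in Dp1Rhr (8.55% of all genes). The log2 fold change was above 0 in all 36 genes (49.9% of all genes), with a median of 0.57 where the median of all genes was 0.00. Other lists leaned the same way. The log2 fold change was above 0 in 29 of 34 genes of the further choroid plexus list, 24 of 24 of ependyma and motile cilia, 11 of 11 of oligodendrocytes, 15 of 18 of leptomeninges, 12 of 15 of endothelium and 8 of 12 of astrocytes, but in 5 of 15 of hippocampal neurons. The ependymal means given above did not overlap between groups, with 6.68 the lowest in Dp1Rhr and 6.66 the highest in control. In no choroid plexus gene did all Dp1Rhr arrays lie above all control arrays (1.82% of all genes).

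The size of the difference moved with the 2 low control arrays. The SD was larger in control than in Dp1Rhr for 31 of the 36 genes (56.4% of all genes). Without control 2 and 3 the median log2 fold change of the 36 genes was 0.19. The fold change then stayed above 0 in 34 genes (52.7% of all genes), and Slc12a2 and Car2 turned to -0.07 and -0.01. Of the 36, 6 were higher at an unadjusted p of 0.05 (8.03% of all genes) and 0 after adjustment (0.0251% of all genes). FCROS, a rank method on the fold changes of array pairs that was run here as an alternative, called 28 of the 36 higher on all 10 arrays (3.4% of all genes).

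For Ttr the log2 fold change of Dp1Rhr over control was 1.55 ± 0.75 (SE), with a 95% interval of -0.08 to 3.19 and a limma adjusted p of 0.361. The exact permutation test of the mean difference over all assignments of the arrays to 2 groups of 5 gave p = 0.119, where 0.00794 was the smallest possible. Without control 2 and 3 the log2 fold change was 0.08 ± 0.10 (95% interval -0.13 to 0.30, limma adjusted p = 0.792). The Ttr values left lay close to the highest value of any probe set, as given above. How far that limits this estimate and the correlations with Ttr was not tested. For Kcnj13 the log2 fold change was 2.32 ± 0.89 on all arrays (limma adjusted p = 0.238). Without control 2 and 3 it was 0.60 ± 0.27 (adjusted p = 0.366).

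The lowest adjusted p values belonged to genes with gaps of -0.12 to 0.36. Car14 came nearest to the threshold, at a log2 fold change of 0.53 ± 0.12 and a limma adjusted p of 0.0760, and at 0.35 ± 0.09 with 0.173 without control 2 and 3. It passed at 0.0488 when Dp1Rhr 3 was left out and at 0.0399 with array weights. Ezr followed at 0.29 ± 0.08 (adjusted p = 0.108), Car12 at 0.44 ± 0.13 (0.127), Calml4 at 0.87 ± 0.26 (0.127), Wfikkn2 at 0.37 ± 0.12 (0.146) and Igfbp2 at 0.64 ± 0.21 (0.169). Wfikkn2 has 2 probe sets, and with these averaged its log2 fold change was 0.27 (limma adjusted p = 0.127). In these 6 genes the estimate without control 2 and 3 was still above 0, from 0.17 in Ezr to 0.49 in Calml4, with no adjusted p under 0.173.

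By role, the median log2 fold change was 0.80 for secreted proteins, 0.46 for ion, water and pH transport, 0.64 for solute transport, receptors and enzymes, 0.35 for junctions and cytoskeleton and 0.61 for both transcription factors. Without control 2 and 3 these medians were 0.23, 0.21, 0.19, 0.16 and 0.22.

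**Figure D5:**
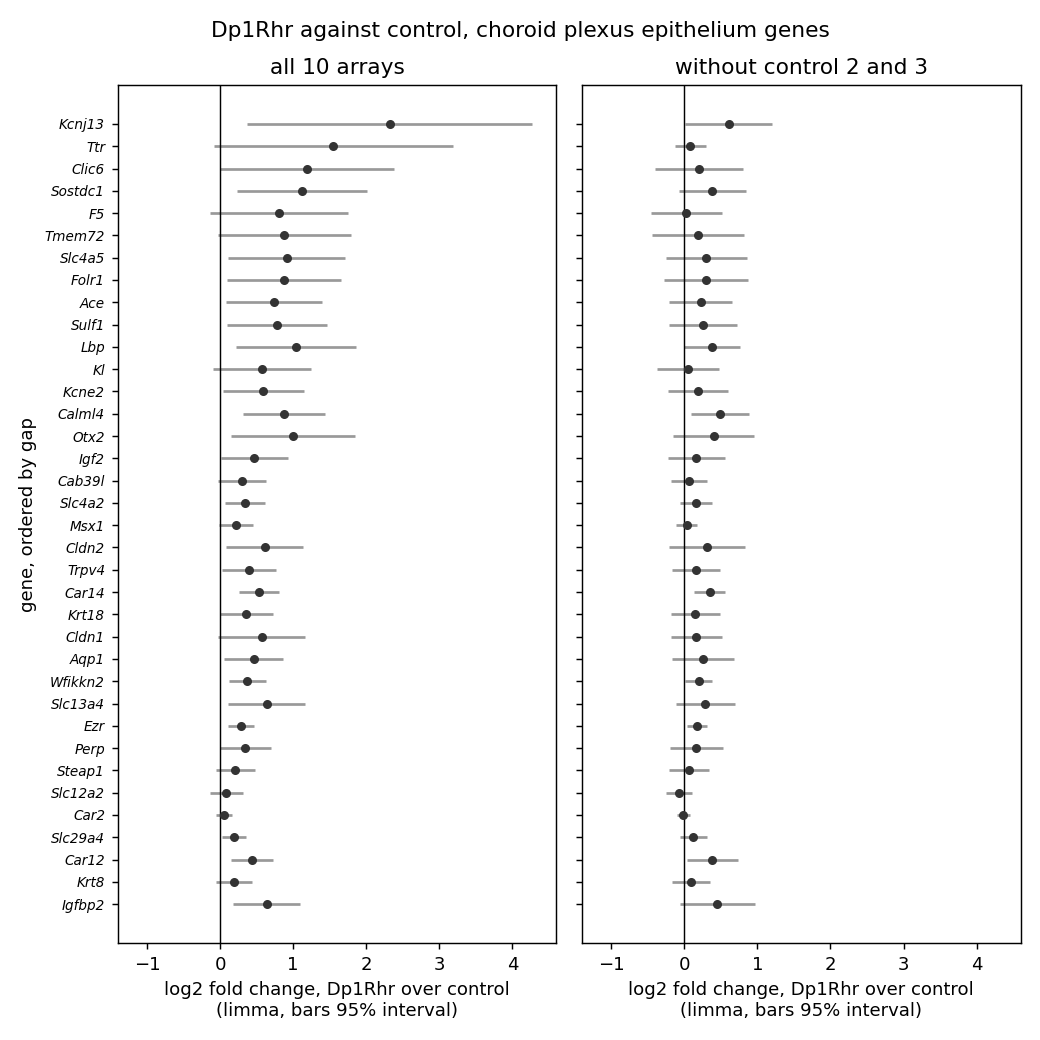
Log2 fold change of Dp1Rhr over control for the 36 choroid plexus epithelium genes, with limma's 95% interval, on all 10 arrays (left) and without control 2 and 3 (right). The median is 0.57 in the left panel and 0.19 in the right one, where Slc12a2 and Car2 lie below 0.

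On the further choroid plexus list, 2 of 34 genes passed the test, both higher in Dp1Rhr, and 0 were lower, beside 0.627% and 0.176% of all genes. Stra6, the retinol uptake receptor, was at 9.56, 9.55, 9.35, 9.27 and 9.46 in Dp1Rhr, against 9.12, 9.07, 9.00, 9.08 and 8.92 in control. Its groups did not overlap, and its control arrays 2 and 3 were not its lowest pair. The log2 fold change was 0.40 ± 0.06 (SE, limma adjusted p = 0.0210) and 0.40 ± 0.07 without control 2 and 3 (adjusted p = 0.101). Trf, transferrin, which oligodendrocytes also make, was at 12.04, 12.01, 12.00, 11.98 and 11.84 in Dp1Rhr, against 11.73, 11.58, 11.68, 11.81 and 11.81 in control, with a log2 fold change of 0.25 ± 0.05 (adjusted p = 0.0494) and 0.19 ± 0.05 without control 2 and 3 (adjusted p = 0.160). The groups of Trf did not overlap either, where 1.82% of all genes were higher in Dp1Rhr without overlap. Unlike in Stra6, control 2 and 3 were the 2 lowest arrays in Trf, with a gap of 0.04. The median log2 fold change of the further choroid plexus list was 0.20, and 0.09 without control 2 and 3.

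The other 6 lists together gave 1 call, beside the same shares of all genes. Fgfr3, a growth factor receptor of astrocytes, was at 9.29, 9.29, 9.24, 9.16 and 9.55 in Dp1Rhr, against 9.81, 9.56, 9.58, 9.81 and 9.63 in control. It was lower in Dp1Rhr at a log2 fold change of -0.37 ± 0.07 (SE, limma adjusted p = 0.0471), and at -0.45 ± 0.08 without control 2 and 3 (adjusted p = 0.101). Median log2 fold changes were 0.16 for ependyma and motile cilia, 0.10 for leptomeninges, 0.13 for endothelium, -0.03 for hippocampal neurons, 0.10 for oligodendrocytes and 0.04 for astrocytes. Without control 2 and 3 they were 0.11 for ependyma and motile cilia, 0.04 for leptomeninges, 0.09 for endothelium, -0.03 for hippocampal neurons, 0.06 for oligodendrocytes and 0.01 for astrocytes, beside 0.19 for the choroid plexus genes and 0.09 for the further list.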

How the data were processed

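Total RNA of both hippocampi was hybridised to 1 array per mouse, for 5 Dp1Rhr and 5 control mice that the labels call biological replicates. The authors deposited log2 values after RMA, which corrects background, quantile normalizes and summarises probe sets. Besides RMA, the submitters' processing notes list limma and mm10. The RMA version and which arrays were normalized together: not given in the sources used here. Because of the normalization, a shift of all genes could not be seen. The number of arrays limits the precision, and no scan date or slide was used.

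Of 35556 probe sets, 21789 had exactly 1 symbol in the platform annotation, 1621 had several and 12146 were not listed. The brightest per gene was kept for 19938 genes. Of the named probe sets 21698 matched RefSeq by Entrez identifier, from which coordinates were taken.

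The genotypes were compared in limma 3.58.1 (R 4.3.3, lmFit and eBayes, two-sided, Benjamini-Hochberg over all genes, adjusted p of 0.05), tested on simulated data first. FCROS, the study's method, was an alternative (trim 0.25, limits 0.025 and 0.975), since it calls a near-fixed share of genes. Correlations with Ttr were tested by exact permutation.

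The 40 genes and the lists (further choroid plexus, ependyma and motile cilia, leptomeninges, endothelium, hippocampal neurons, oligodendrocytes, astrocytes) were chosen with earlier results of these data known. Values per array are given for Ttr, the 12 widest gaps, the 6 smallest limma p and at least 2 genes of each role. Outside the list, the 8 genes with the widest gaps and list genes past the threshold are named. Alternatives were a replicate block, each array left out, control 2 and 3 left out, a second quantile normalization, centring on array medians, a filter at the 40th signal percentile, all or averaged probe sets, trend and robust fits, and array weights.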

Additional observations from a re-analysis of the deposited data

How the results depend on the processing

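No choroid plexus gene passed the limma test under any setting but 2. With array weights the count was 1 (Car14, adjusted p = 0.0399), and with 1 array left out it lay between 0 and 1, the 1 being Car14 without Dp1Rhr replicate 3. FCROS called 28 genes, Ttr at a log2 fold change of 1.55 among them. For Ttr, leaving out 1 array gave log2 fold changes of 0.96 (without control replicate 2) to 1.95 (without control replicate 1), none past the threshold. The median log2 fold change of the 36 genes lay between 0.43 and 0.73 with 1 array left out, and moved to 0.19 without control replicates 2 and 3. Leaving out both turned Slc12a2 to -0.0718 and Car2 to -0.0116. Over single genes, 658 of 662 comparisons with an alternative kept direction and side of the threshold. Some alternatives, such as the replicate block and the signal filter, leave the log2 fold change as it was by construction. Keeping the side meant only staying short of the threshold. Control 2 and 3 were the 2 lowest arrays in 34 of 36 genes after a second quantile normalization or centring, in 30 of the 33 genes kept by the signal filter, in 33 of 36 with averaged probe sets and in 34 of 37 with every probe set. Under each alternative run, 0 genes passed the adjusted correlation with Ttr. The replicate numbers did not pair the arrays: correlations of same-numbered deviations were 0.12, -0.33, -0.34, -0.08 and 0.07. With the replicate block no choroid plexus gene passed, the adjusted p of Ttr was 0.378 beside a log2 fold change of 1.55, and 4 of all genes passed, against 160 without the block. With 1 array left out, the count over all genes was 5 (Dp1Rhr 1), 10 (Dp1Rhr 2), 12 (Dp1Rhr 4), 284 (Dp1Rhr 5), 19 (control 2), 42 (control 3) and 12 (control 5), and within 1.5 times of 160 for the other 3 arrays. It was 5 without control 2 and 3 together and 280 with array weights. The cause of these shifts was not tested.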
